A study of Danio rerio with 12 samples.

Results

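The control cardiomyocytes of 2 experiments on the transcription factor gene *hand2* were compared with each other, and they make up 6 of the 12 libraries of the series. The first control set consists of 3 libraries of *hand2 FLD+/?* cardiomyocytes, the siblings of *hand2 FLD-/-* mutants. The second consists of 3 libraries of WT cardiomyocytes, the siblings of embryos that overexpress *hand2* (*hand2* OE). The libraries were chosen as the control columns of the 2 deposited tables, which had been normalized apart. The 19713 genes listed in both tables were joined on their Ensembl identifier, the 6 columns were rescaled together by the median of ratios, and the 17124 genes averaging 5 or more were tested. All embryos were zebrafish at 20 hpf, and the cells were sorted by a fluorescent reporter under the *myl7* promoter, which is active in cardiomyocytes. The reporter was EGFP for *hand2 FLD+/?*. For the WT set the study names EGFP in one place and mCherry in another, so the sets may differ in reporter. The question mark in the *FLD+/?* genotype means that an embryo carried 0 or 1 copy of *FLD*, a full-locus deletion allele of *hand2*, although a further label of these samples names them sibling WT of *hand2* mutants. The labels name neither clutches nor strains. The study calls the libraries of a set biologically independent samples. The p-values weigh the difference of the sets against the spread between libraries within a set. With a single experiment per set, they hold no spread between experiments and cannot say whether other control experiments would differ alike. The *FLD* line was made by genome editing, and the *myl7*-driven *hand2* transgene of the other experiment was established in AB embryos. Each control set belongs to its own experiment, so genotype, reporter, parents, day, sort and sequencing run cannot be told apart in any difference given here.

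Cardiomyocytes of the zebrafish arise in the anterior lateral plate mesoderm on each side of the embryo and migrate to the midline, where they form the heart tube around 20 hpf. In this period the cells switch from the genes of mesodermal precursors to those of contractile muscle, among them the genes for thick and thin filaments, for titin and for calcium handling. Hand2 and the factors Nkx2.5, Gata4, Gata5, Gata6, Tbx5a and Tbx20 act in this lineage, and neighbouring lateral plate cells form endothelium, blood, mesothelium and the pectoral fin.

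The libraries of each set resembled each other closely. Spearman correlations across the 17124 genes were 0.978 to 0.985 among the *hand2 FLD+/?* libraries, 0.961 to 0.964 among the WT libraries and 0.883 to 0.899 between the sets, where genes are not independent replicates. The first principal component held 58.0% of the variance and separated the sets, and the second, with 15.8%, set WT library 2 apart from the other WT libraries. The estimated depth was 6527202 to 6766618 reads in *hand2 FLD+/?* and 5502327 to 5666834 reads in WT, so that the sets do not overlap in depth. Levels were likewise not balanced over the range of expression. The median log2 fold change of *hand2 FLD+/?* over WT was 0.56 among the 3133 genes averaging under 20 and -0.34 among the 262 genes averaging 2000 or more, beside 0.09 over all genes tested. The part of depth in this trend was not tested.

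Markers of cardiomyocytes were high in all 6 libraries, as the label says. The cardiac myosin light chain gene *myl7*, whose promoter marks the sorted cells, had 1692, 1719 and 1735 normalized read counts in *hand2 FLD+/?* and 2483, 2523 and 2461 in WT. The troponin T gene *tnnt2a* had 1744, 1774 and 1759.8 in *hand2 FLD+/?* and 2439, 2448 and 2422 in WT. Each gene was steady within a set and lower in every *hand2 FLD+/?* library, although the log2 fold changes of -0.54 and -0.47 stayed short of the 1.5-fold threshold.

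The gene that the study targets, *hand2* (danRer11, chromosome 1, 38193147 to 38195012), was measured at 1899.5, 1984 and 2039 in *hand2 FLD+/?* and at 1911, 1900.3 and 1826 in WT. The sets overlapped, and the log2 fold change was 0.07 with a 95% interval of -0.02 to 0.16 (limma, adjusted p = 0.19). Of the other factors of the lineage, *gata5* was called higher in *hand2 FLD+/?*, with 1779, 1860.3 and 1840 in *hand2 FLD+/?* and 1060, 1187 and 1169 in WT (log2 fold change 0.68 ± 0.05 SE, adjusted p = 5.3e-05), and those that follow were not called. The homeobox gene *nkx2.5* had 1463, 1488 and 1483 in *hand2 FLD+/?* and 2062, 2043 and 2038 in WT, *gata6* 1857, 1922 and 1955 in *hand2 FLD+/?* and 2297, 2258 and 2228 in WT, and the T-box gene *tbx20* 1099.8, 1082 and 925 in *hand2 FLD+/?* and 1273, 1172 and 1364 in WT. Every WT library was above every *hand2 FLD+/?* library for these 3 genes, with log2 fold changes of -0.47, -0.24 and -0.29 that were not called. For *gata4*, with 315, 322 and 254 in *hand2 FLD+/?* and 322, 397 and 400.1 in WT, the adjusted p was 0.095, and the 95% interval of the log2 fold change, -0.65 to -0.01, reached past the threshold.

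The genes with the most reads in both sets were shared. By the smaller of the 2 group means, the leading 10 were the titin genes *ttn.2* and *ttn.1*, the myosin heavy chain gene *myh7*, *hapln1a* for a link protein of the hyaluronan matrix, the laminin gene *lama5*, CR383676.2, the calcium pump gene *atp2a2a*, *podxl*, the N-cadherin gene *cdh2* and the RNA-binding protein gene *qkia*. Read counts are not divided by transcript length, so this order favours long transcripts such as titin. *lama5* had 5928, 5912 and 5820.0 in *hand2 FLD+/?* and 6354, 6714 and 6339 in WT, and *cdh2* had 4377, 4498 and 4520.3 in *hand2 FLD+/?* and 5130.4, 5227 and 4905 in WT. These genes differed by little, with log2 fold changes of -0.14 and -0.19, whereas *ttn.2* and *ttn.1* passed the threshold as described below. The 10 most read genes of a library took 1.08% to 1.12% of all its normalized counts in *hand2 FLD+/?* and 1.58% to 1.71% in WT.

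A missed threshold does not show that a level was shared, so genes were also counted whose 95% interval lay wholly within 1.5-fold. There were 3896 such genes, 22.8% of those tested, and 3701 of them were among the 7699 genes averaging 200 or more, since low genes have intervals too wide for this count. Cytosolic ribosomal protein genes had the highest share inside it of the lists examined, with 78 of 81 and none called in either direction. Their median log2 fold change was -0.15 after joint rescaling and 0.27 with the values as the tables give them, so no direction is given for them. In the plot of the group means, these genes lie in the grey band along the diagonal. That band also holds 8239 genes that were neither called nor inside the interval, and these are not shown to be shared.

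**Figure D1:**
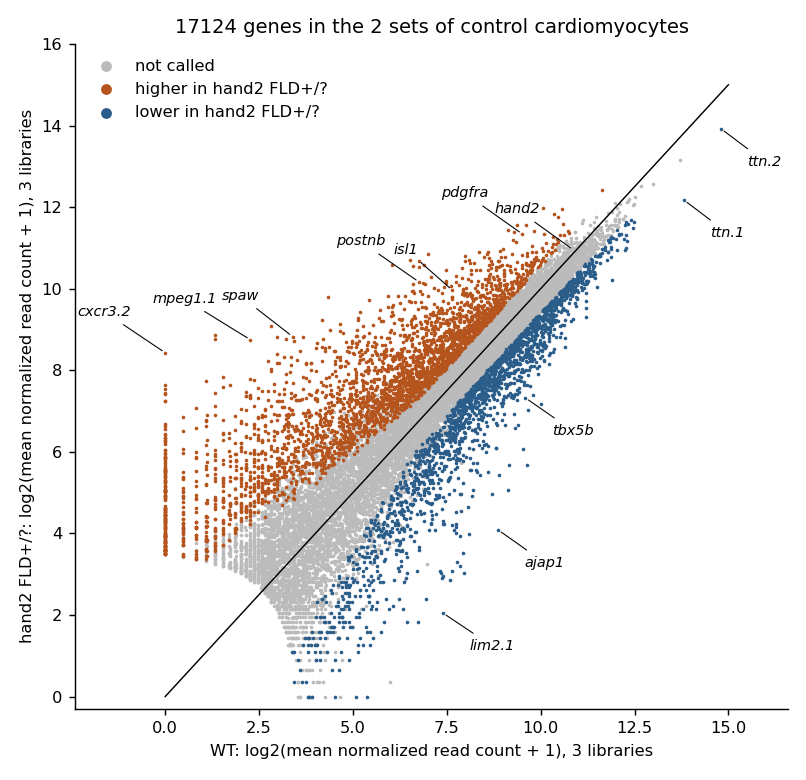
Mean normalized read count of each of 17124 genes in *hand2 FLD+/?* (vertical axis) and WT cardiomyocytes (horizontal axis), both as log2(mean + 1) of 3 libraries. Orange points were called higher and blue points lower in *hand2 FLD+/?*, grey points were not called, and the line marks equal levels. *hand2* lies on the line, *ttn.2* is the highest gene in both sets, and *cxcr3.2* sits at 0 in WT.

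Beside this shared part, the sets differed widely. Called by limma at 1.5-fold and a Benjamini-Hochberg adjusted p of 0.05, 3095 genes (18.1% of those tested) were higher and 1894 genes (11.1%) were lower in *hand2 FLD+/?* than in WT, 4989 genes or 29.1% in all. The libraries of the sets did not overlap in 9462 genes (55.3%). All counts of list members below are to be read against these shares, which shift with level. Of 2158 genes averaging from 20 to under 50, 439 were higher and 176 lower. Of 1262 genes averaging from 1000 to under 2000, 85 were higher and 197 lower. Of the called genes, 62.0% were higher in *hand2 FLD+/?*, and 86.2% with the values as the tables give them, for which the median log2 fold change of all genes was 0.51 in place of 0.09. With each library left out in turn, 3315 of the 4989 calls held every time. Among genes averaging 200 or more, a limit chosen after seeing the data, 1185 were higher and 1092 lower, a near even split.

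Genes of the contractile apparatus were lower in *hand2 FLD+/?*. Of 34 sarcomere genes tested, 17 were called lower and none higher, and their median log2 fold change was -0.65. Over the alternatives of processing this median ranged from -0.66 to -0.23. The summed level of the 34 genes was 72145 to 76622 in *hand2 FLD+/?* and 125776 to 136602 in WT. Bulk libraries cannot tell fewer cells of a type from less RNA per cell, here and for each list that follows. Titin spans the sarcomere from the Z disc to its middle, and *ttn.1* had 5175, 4346 and 4303 in *hand2 FLD+/?* and 13809.8, 16049 and 13532 in WT (log2 fold change -1.65 ± 0.08 SE, adjusted p = 1.2e-05). The second titin gene, *ttn.2*, had 16876, 14083 and 15493 in *hand2 FLD+/?* and 28004, 31336 and 26694 in WT, with a log2 fold change of -0.89, which is -0.47 with the values as the tables give them. Both genes were lower in every *hand2 FLD+/?* library. Among the other called members, *obscnb*, for the titin partner obscurin, had 646, 524 and 610.0 in *hand2 FLD+/?* and 1632, 2108 and 1623 in WT. The filament regulator *mybpc3* had 1985, 1856 and 2073 in *hand2 FLD+/?* and 4284, 4205 and 4190.2 in WT, and the Z-disc gene *ldb3a* had 2243, 1997 and 1876 in *hand2 FLD+/?* and 5022, 5123 and 4772 in WT. The first and the last of these 3 genes fell by 1.58 and 1.29 on the log2 scale, and no library of one set reached the other in any of them. The tropomyosin genes *tpm4a* and *tpm1* of the thin filament had log2 fold changes of -0.07 and -0.03.

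The marker genes of the cardiomyocyte cluster in the study's single-cell data, which came from other embryos of a later stage, were lower in *hand2 FLD+/?* as well. This list shares genes with the sarcomere list, among them *ttn.1*, *ldb3a*, *mybpc3* and *myh7l*, so the lists are not independent. After joint rescaling, the sets did not overlap and the log2 fold change was negative in all 50 genes tested. It ranged from -1.65 to -0.29, and 28 genes were called lower. The list median of -0.61 ranged from -0.63 to -0.19 over the alternatives of processing. Skeletal muscle genes went the same way, with 9 of 18 called lower, none higher and a median of -0.91. The slow myosin gene *smyhc1* had 81.8, 86.6 and 33.4 in *hand2 FLD+/?* and 225, 376 and 207 in WT, and the giant filament gene *neb* had 141, 105 and 52.3 in *hand2 FLD+/?* and 593, 490.2 and 506 in WT. The summed skeletal muscle list was 4369 to 5600 in *hand2 FLD+/?* and 9517 to 9760.0 in WT, while its master factor gene *myod1* had at most 21.3 in any library. Whether skeletal muscle cells took part in these values was not tested.

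Genes of excitation and calcium handling were lower in *hand2 FLD+/?* too. Of 22 tested, 12 were called lower and none higher, and all 12 calls held with each library left out in turn. The median log2 fold change was -0.76, and -0.84 to -0.34 over the alternatives of processing. The L-type calcium channel gene *cacna1c*, through which calcium enters at each beat, had 544, 494 and 416 in *hand2 FLD+/?* and 1104, 1276 and 1121 in WT. Its auxiliary subunit gene *cacna2d1a* had 300.1, 249 and 174 in *hand2 FLD+/?* and 941, 922 and 1052 in WT. The ryanodine receptor gene *ryr2b*, which releases calcium from the sarcoplasmic reticulum, had 3059.8, 2706 and 2916 in *hand2 FLD+/?* and 5574, 5862 and 5565 in WT. The log2 fold changes were -1.27 ± 0.11, -2.04 ± 0.18 and -0.97 ± 0.05 (SE), with adjusted p of 8.2e-05, 0.00011 and 9.4e-06, and no library of one set reached the other. With the values as the tables give them, *ryr2b* had a log2 fold change of -0.55 and was not called. The pump gene *atp2a2a*, which returns calcium to the store, differed little, with 4531, 4675 and 4837 in *hand2 FLD+/?* and 5241, 5524 and 4925 in WT and a log2 fold change of -0.16.

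Of 25 cardiac transcription factors tested, 4 were lower and 6 higher in *hand2 FLD+/?*, shares near those of all genes. The largest fall was that of *tbx5b*, the paralog of the heart and fin gene *tbx5a*, with 173, 136 and 168 in *hand2 FLD+/?* and 752, 792 and 774 in WT (log2 fold change -2.28 ± 0.12 SE, adjusted p = 1.2e-05). *tbx5a* itself, at 801, 832 and 865 in *hand2 FLD+/?* and 1156, 1219.8 and 1017 in WT, was not called (log2 fold change -0.44). Every *hand2 FLD+/?* library lay below every WT library for both paralogs. The homeobox gene *isl1*, a marker of late-differentiating cardiac precursors, had 949, 973 and 1068 in *hand2 FLD+/?* and 142, 288 and 169 in WT (log2 fold change 2.38 ± 0.24 SE, adjusted p = 0.00017). *prrx1a*, a homeobox gene of lateral plate mesenchyme, had 968, 1029 and 1020.4 in *hand2 FLD+/?* and 134, 152 and 177 in WT (2.71 ± 0.12 SE, adjusted p = 7.9e-06). The homeobox gene *isl2b* was higher too, with 558, 617 and 659 in *hand2 FLD+/?* and 145, 236 and 312 in WT. Another of the 6 rises was that of *gata5*, given above. The same-total, trimmed-mean and joint rescalings gave a negative median for this list, -0.33 in the joint one, and the values as the tables give them a median of 0.09.

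**Figure D2:**
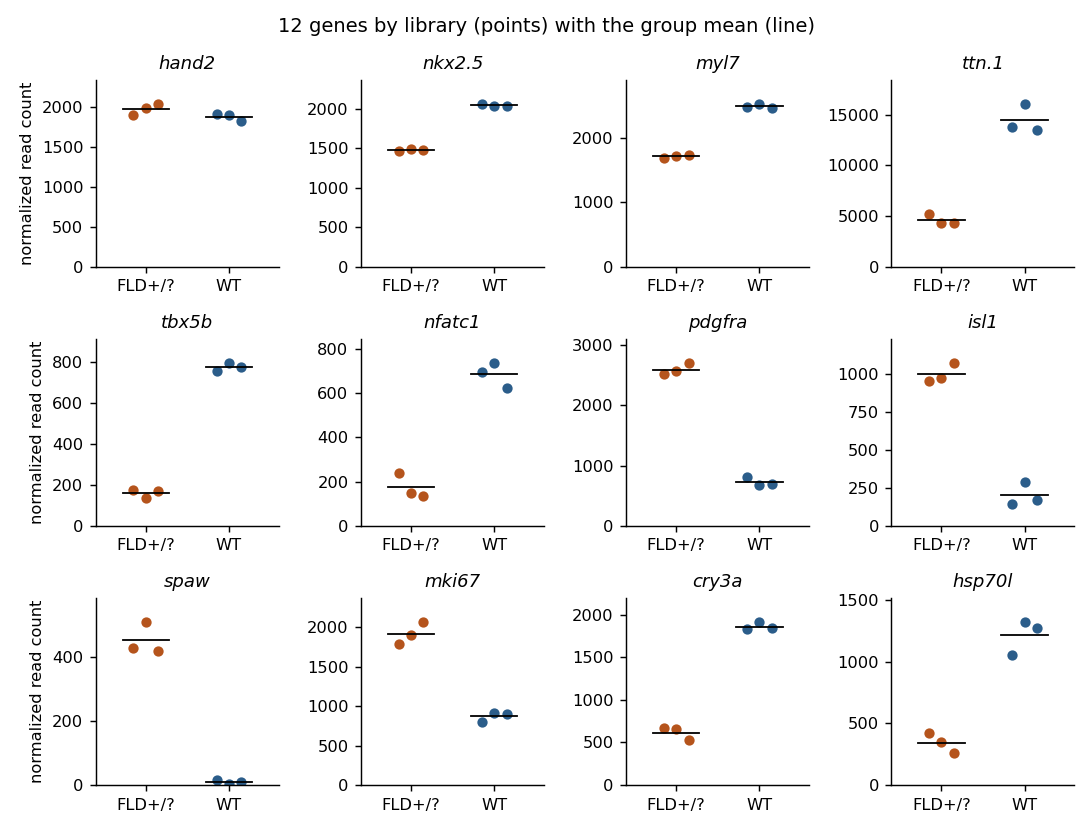
Jointly rescaled normalized read count of 12 genes in each library, with *hand2 FLD+/?* on the left and WT on the right of each panel, points for libraries and lines for group means, on axes that start at 0. *hand2* overlaps between the sets, *ttn.1*, *tbx5b*, *nfatc1*, *cry3a* and *hsp70l* are lower in *hand2 FLD+/?*, and *pdgfra*, *isl1*, *spaw* and *mki67* are higher.

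Genes of the anterior lateral plate and of its mesothelial derivatives were higher in *hand2 FLD+/?*. Of 26 tested, 15 were called higher and 1 lower, with a median log2 fold change of 1.40, and 13 of these 16 calls held with each library left out in turn. The list shares *isl1*, *prrx1a*, *tcf21*, *hand2* and *tbx5a* with the list of cardiac factors. It also shares *wt1a* and *osr1* with a list of pronephros and intermediate mesoderm, which holds *wt1b*, and *twist1a* with a list of neural crest and pigment. Of 10 pronephros genes 5 were called higher, with a median of 1.365, and of 12 neural crest genes 3, with a median of 1.51. None was called lower in either list. Of the pronephros calls 3 of 5, and of the neural crest calls 2 of 3, held with each library left out in turn. The neural crest share is near the 18.1% of all genes. Over the alternatives of processing the medians ranged from 0.61 to 2.12 for pronephros and from 0.91 to 2.63 for neural crest. Rises were thus called outside the lateral plate list as well, with less stable values. The Nodal ligand gene *spaw*, which is expressed in the left lateral plate, had 429.7, 509.7 and 421 in *hand2 FLD+/?* and 14.9, 3.4 and 10.2 in WT (log2 fold change 5.62 ± 0.47 SE, adjusted p = 7.5e-05). The Wilms tumour factor gene *wt1a*, known from mesothelium and kidney, had 66.5, 93.4 and 73.7 in *hand2 FLD+/?* and 0, 0 and 5.7 in WT, and its paralog *wt1b* had 362, 429 and 395 in *hand2 FLD+/?* and 67.5, 41 and 53.3 in WT. The mesenchyme factor gene *twist1a* had 726, 793 and 822 in *hand2 FLD+/?* and 27.4, 55.9 and 116 in WT. None of these genes overlapped between the sets, and WT libraries held few reads of each. The calls of *osr1* and *tcf21* were weaker: each lost its call when any single *hand2 FLD+/?* library was left out, with adjusted p of 0.104 to 0.115 for *osr1* and 0.102 to 0.122 for *tcf21*. The call of *osr1* was also lost without WT library 1 or 2, and that of *tcf21* without WT library 2 or 3. The marker genes of the cardiac precursor cluster of the single-cell data had a median log2 fold change of 0.17, close to that of all genes. Of these 50 genes 17 were called higher, a larger share than the 18.1% of all genes. Only 2 were lower, a smaller share than the 11.1% of all genes, and 28 lay inside the 1.5-fold interval. The summed level of this list was 67891 to 68755 in *hand2 FLD+/?* and 60859 to 61932 in WT. Its largest rises were those of the retinoic acid receptor gene *raraa*, with 378, 349 and 418 in *hand2 FLD+/?* and 38.9, 16 and 44.2 in WT, and of the keratin gene *krt94*, with 982, 1062 and 929 in *hand2 FLD+/?* and 117, 39.9 and 124 in WT.

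Of a list of 15 genes drawn up from the study, 8 were higher and 1 lower in *hand2 FLD+/?*. All but *fgfr2*, which is one of the 8, are named in the text of the study. The study picked several of them, *pdgfra*, *postnb*, *jam2b* and *rhag* included, for their response in contrasts that use these same control libraries. They were lower in mutants than in *hand2 FLD+/?* and higher in *hand2* OE than in WT. That choice favours genes high in *hand2 FLD+/?* and low in WT. Neither this count nor the rises of the picked genes are therefore independent evidence of a direction. The platelet-derived growth factor receptor gene *pdgfra* (danRer11, chromosome 20, 22435180 to 22476255), whose product guides the migration of cardiac precursors, had 2518, 2561 and 2697 in *hand2 FLD+/?* and 815, 683 and 690.2 in WT (log2 fold change 1.83 ± 0.07 SE, adjusted p = 6.1e-06). The matrix gene *postnb*, for a periostin, had 1095, 1159 and 1183 in *hand2 FLD+/?* and 117, 107 and 98.6 in WT. The adhesion gene *jam2b* had 959, 1002 and 1009 in *hand2 FLD+/?* and 101, 144 and 83.9 in WT. The means of these 3 genes in *hand2 FLD+/?* were 3.55 times, 10.7 times and 9.05 times those of WT. Any part of *hand2* in these differences was not tested. The fibronectin gene *fn1a*, whose matrix the migrating cells cross, had 3527, 3516 and 3363 in *hand2 FLD+/?* and 1358, 1649.6 and 1212 in WT. The Rh glycoprotein gene *rhag* had 1322, 1402 and 1459 in *hand2 FLD+/?* and 316, 319 and 296 in WT. *bmp5*, *tcf3a* and *npas4l* overlapped between the sets and were not called, and *tcf3b* had a log2 fold change of 0.53, just under the threshold.

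Among fibroblast growth factor (FGF) genes, 10 of 38 were higher and 6 lower, so ligands, receptors and targets did not move as a whole. Of the receptors, *fgfr3* had 1952, 1958 and 1904 in *hand2 FLD+/?* and 486, 425 and 527 in WT, *fgfr4* had 3577, 3697 and 3637 in *hand2 FLD+/?* and 1271, 1284 and 1345 in WT, and *fgfr2* had 1716, 1720.1 and 1437 in *hand2 FLD+/?* and 838, 868 and 882 in WT. All were higher in *hand2 FLD+/?*, by log2 fold changes of 2.02, 1.48 and 0.91. *fgfr3*, *fgfr4* and the ligand gene *fgf17* are among the genes the study picked in contrasts with these control libraries. That choice favours genes high in *hand2 FLD+/?* and low in WT, so the rises of *fgfr3* and *fgfr4* are not independent evidence of a direction. The ligands were split. The fin and lateral plate ligand genes *fgf10a*, *fgf10b* and *fgf24* were higher, with 897, 970.1 and 986 for *fgf10a* in *hand2 FLD+/?* and 126, 67.3 and 101 in WT. *fgf17*, a ligand of the FGF8 subfamily, was lower, with 139.8, 114 and 115 in *hand2 FLD+/?* and 453, 432 and 496 in WT (log2 fold change -1.90 ± 0.14 SE, adjusted p = 3.8e-05). The median over the list was -0.14 after joint rescaling and 0.28 with the values as the tables give them.

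Of 48 genes of BMP and Nodal signalling, 12 were higher and 3 lower, with a median log2 fold change of 0.19. The called members of the list with the largest rises were *spaw*, *ndr2* and *lft1*, genes of the Nodal pathway, which sets left and right in the lateral plate. The Nodal ligand gene *ndr2* had 318, 343 and 242 in *hand2 FLD+/?* and 9.1, 2.3 and 39.7 in WT, and the Nodal inhibitor gene *lft1* had 169.7, 176 and 116 in *hand2 FLD+/?* and 12.6, 0 and 20.4 in WT. *lft2*, the inhibitor gene expressed in the left heart field, went the other way with means of 1154 in *hand2 FLD+/?* and 1790 in WT (log2 fold change -0.64). The BMP family gene *bmp3* had 610.4, 618 and 577 in *hand2 FLD+/?* and 76.6, 62.7 and 92.9 in WT.

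Matrix genes changed in both directions. Of 44 collagen genes tested, 16 were higher and 4 lower in *hand2 FLD+/?*, with a median log2 fold change of 0.52. Collagen VI, which forms beaded microfibrils around cells, stood out by its 3 chains named here. *col6a3* had 516, 504 and 506 in *hand2 FLD+/?* and 11.4, 16 and 32.9 in WT (log2 fold change 4.73 ± 0.36 SE, adjusted p = 5.1e-05). *col6a1* had 517, 490.1 and 440.4 in *hand2 FLD+/?* and 50.3, 22.8 and 3.4 in WT, and *col6a2* had 131, 144 and 230.5 in *hand2 FLD+/?* and 0, 0 and 11.3 in WT. The fibrillar chain gene *col11a1b* had 263, 246 and 234 in *hand2 FLD+/?* and 1.1, 1.1 and 24.9 in WT. All 4 genes were low in WT, where their values spread widely.

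Cell cycle genes were higher in *hand2 FLD+/?* with few exceptions. Of 35 tested, 27 were called higher and 1 lower, with a median log2 fold change of 1.33, and the summed level was 26951 to 29281 in *hand2 FLD+/?* and 14823 to 15116 in WT. The proliferation marker *mki67* had 1786, 1907 and 2063 in *hand2 FLD+/?* and 805, 916 and 904 in WT (log2 fold change 1.13 ± 0.07 SE, adjusted p = 2.4e-05). The mitotic checkpoint kinase gene *bub1* had 367, 461 and 511 in *hand2 FLD+/?* and 42.3, 55.9 and 61.2 in WT, and the kinetochore gene *cenpf* had 983, 906 and 876 in *hand2 FLD+/?* and 184, 283 and 277 in WT. No library of one set reached the other in these 3 genes. The replication licensing genes *mcm2*, *mcm7* and *mcm4* had log2 fold changes of 0.38, 0.41 and 0.46, short of the threshold, and *mcm6* was called with 0.73. The lone fall, that of a gene named *rrm2*, is taken up with the gene copies below.

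Genes of the circadian clock were lower in *hand2 FLD+/?*, with 16 of 28 called lower, 1 higher and a median log2 fold change of -0.67. That median was -0.76 to -0.25 over the alternatives of processing. The cryptochrome gene *cry3a* had 668, 656 and 524 in *hand2 FLD+/?* and 1829, 1913 and 1851 in WT (log2 fold change -1.60 ± 0.09 SE, adjusted p = 1.7e-05). The nuclear receptor gene *nr1d2a*, a repressor in the clock loop, had 111, 73.1 and 118 in *hand2 FLD+/?* and 888, 734 and 401.2 in WT, and the output factor gene *dbpb* had 29, 15.3 and 3.4 in *hand2 FLD+/?* and 144, 146 and 140.5 in WT. The light-induced gene *per2* had 1193, 1169.7 and 1249 in *hand2 FLD+/?* and 1827, 1813 and 1641 in WT, a log2 fold change of -0.55 that was not called. The labels give no hour of collection, and its part in these values was not tested.

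Genes of stress and cell dissociation went the same way. Of 39 tested, 19 were lower and 2 higher in *hand2 FLD+/?*. The median log2 fold change was -0.59, and -0.64 to -0.18 over the alternatives of processing. The summed level was 36085 to 37632 in *hand2 FLD+/?* and 52326 to 55440 in WT. The heat shock gene *hsp70l* had 424, 347 and 262 in *hand2 FLD+/?* and 1058, 1320.1 and 1272 in WT (log2 fold change -1.84 ± 0.17 SE, adjusted p = 0.00013). The early response genes *jund* and *fosb* fell to 397, 411 and 234 and to 411, 388 and 408 in *hand2 FLD+/?*, against 1101, 929 and 851 and 1109, 982 and 757 in WT. The early gene *egr1*, one of the most read of the list, had 2214, 2223 and 2249.9 in *hand2 FLD+/?* and 2863, 2943 and 2804 in WT, a log2 fold change of -0.36. The falls of the list thus included the heat shock gene *hsp70l* and the early response genes *jund* and *fosb*. The part of this list in the other differences was not tested.

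Most genes of the respiratory chain were not called, though nearly all leaned the same way. Of 94 nuclear genes of the chain, 14 were called lower, a share near that of all genes, and none higher. The log2 fold change was negative in 90 of the 94 genes. The sets did not overlap in 86, a larger share than the 55.3% of all genes. Their median log2 fold change was -0.46, and -0.05 with the values as the tables give them. *ndufa4*, for a subunit of the chain, had 162, 164 and 132 in *hand2 FLD+/?* and 655, 671 and 649 in WT, and *cox6b1*, for a subunit of cytochrome c oxidase, had 179.9, 157 and 155 in *hand2 FLD+/?* and 510.0, 530.1 and 507 in WT. Of 23 hypoxia genes, 7 were lower, a larger share than the 11.1% of all genes, and 4 higher, a share near the 18.1% of all genes. The glucose transporter gene *slc2a1b* was the largest fall, with 345, 336 and 297 in *hand2 FLD+/?* and 1076, 1123 and 961 in WT. The hexokinase gene *hk2* and the adrenomedullin gene *adma* were among the rises, with 229, 181 and 328 for *hk2* in *hand2 FLD+/?* and 84.6, 109 and 82.7 in WT. Hypoxia genes therefore held calls in both directions.

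**Figure D3:**
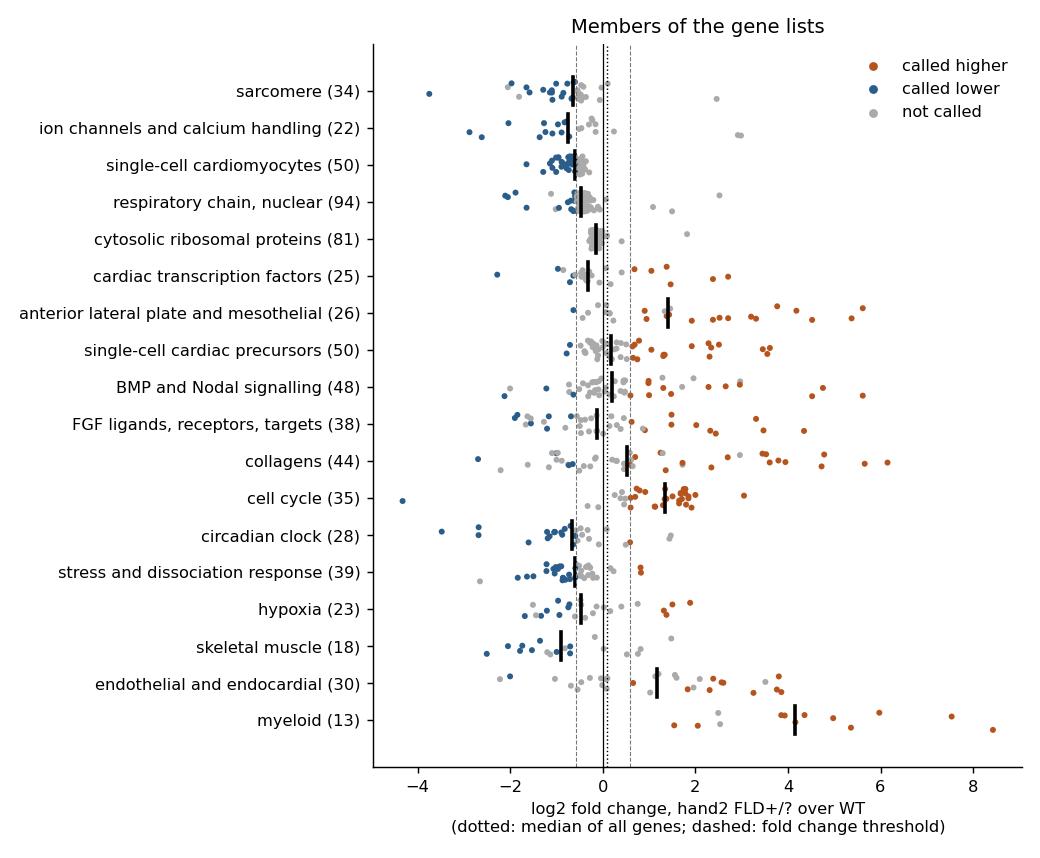
Log2 fold change of *hand2 FLD+/?* over WT for each tested member of 18 gene lists, with the number tested in brackets, black bars at list medians, orange points called higher, blue points called lower and grey points not called. Sarcomere, ion channel, clock and stress genes lie mostly left of 0, cell cycle and myeloid genes mostly right of it, and ribosomal protein genes sit close to 0.

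Markers of other cell types were present at different levels in the sets and in single libraries. Of 13 myeloid genes, 11 were called higher and none lower in *hand2 FLD+/?*, the highest share of any list, with a median log2 fold change of 4.16. The macrophage gene *mpeg1.1*, for a pore-forming protein, had 420.3, 426 and 441 in *hand2 FLD+/?* and 11.4, 0 and 0 in WT. The leukocyte gene *ptprc* (CD45) had 152, 95.1 and 138 in *hand2 FLD+/?* and 8, 0 and 2.3 in WT. The summed myeloid level was 5060 to 5548 in *hand2 FLD+/?* and 253.1 to 1091 in WT, where libraries 2 and 3 were lowest. These sums are below the sarcomere sums of 72145 or more in every library. The lists differ in length and counts are not divided by transcript length, so the sums do not measure shares of cells. Whether myeloid cells contributed to any other difference was not tested.

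Of 30 endothelial and endocardial genes, 10 were higher and 1 lower in *hand2 FLD+/?*, and only 6 of these 11 calls held with each library left out in turn. The blood and vessel factor gene *tal1* had 352, 312 and 329.9 in *hand2 FLD+/?* and 43.4, 70.7 and 54.4 in WT (log2 fold change 2.56 ± 0.21 SE, adjusted p = 7.5e-05), and *etv2*, a factor of the earliest vessel precursors, had 127, 185 and 146 in *hand2 FLD+/?* and 44.6, 36.5 and 15.9 in WT. Other called rises were *fli1a*, with 235, 148 and 242 in *hand2 FLD+/?* and 66.3, 18.2 and 28.3 in WT, *clec14a*, *kdr* and *gpr182*. For *clec14a* the values were 177, 150 and 186 in *hand2 FLD+/?* and 25.2, 35.3 and 1.1 in WT. The calls of *clec14a*, *kdr* and *gpr182* were lost when any single *hand2 FLD+/?* library was left out. The junction gene *cdh5*, a marker of formed vessels, was not called, with 182, 86.6 and 115 in *hand2 FLD+/?* and 143, 226 and 177 in WT. The endocardial factor gene *nfatc1* was lower, with 240.4, 150.4 and 134 in *hand2 FLD+/?* and 696, 735 and 622 in WT (95% interval of the log2 fold change -2.49 to -1.52, adjusted p = 0.00023). The list therefore held members of either direction. Of 47 markers of the endothelial or endocardial cluster of the single-cell data, 13 were called higher and 3 lower, with a median of 0.41. Only 8 of these 16 calls held with each library left out in turn. The summed level of these markers was lower in *hand2 FLD+/?*, at 13266 to 13796 against 14621 to 15162.5 in WT. Both lists hold *clec14a* and *gpr182*, so they are not independent. The receptor gene *kdrl*, at 184, 127 and 153 in *hand2 FLD+/?* and 20.6, 113 and 0 in WT, was not called with all libraries (adjusted p = 0.094) and was called without WT library 2 (adjusted p = 0.014).

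Single libraries stood out for some markers. The erythroid sum was 1406 to 2097 in *hand2 FLD+/?*, against 927.3, 1593 and 663 in WT, where library 2 was highest, and the alpha globin gene *hbae3* had 98.9, 81.5 and 134 in *hand2 FLD+/?* and 17.2, 187 and 22.7 in WT. The epidermal keratin gene *krt4* had 258, 1248 and 371 in *hand2 FLD+/?* and 1152, 358 and 1179 in WT, high in *hand2 FLD+/?* library 2 and in WT libraries 1 and 3. Of 18 epidermal genes 2 were called higher and none lower, and of 27 neural genes 1 was higher and 4 lower. *krt4* and *hbae3* thus overlapped between the sets and varied within them. Of 9 yolk, liver and plasma genes tested, 3 were called higher in *hand2 FLD+/?* and none lower. They were the lipoprotein gene *apoeb*, at 1393, 1429 and 1407 in *hand2 FLD+/?* and 526, 519 and 512 in WT, the lipoprotein gene *apoc1* and the iron carrier gene *tfa*.

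**Figure D4:**
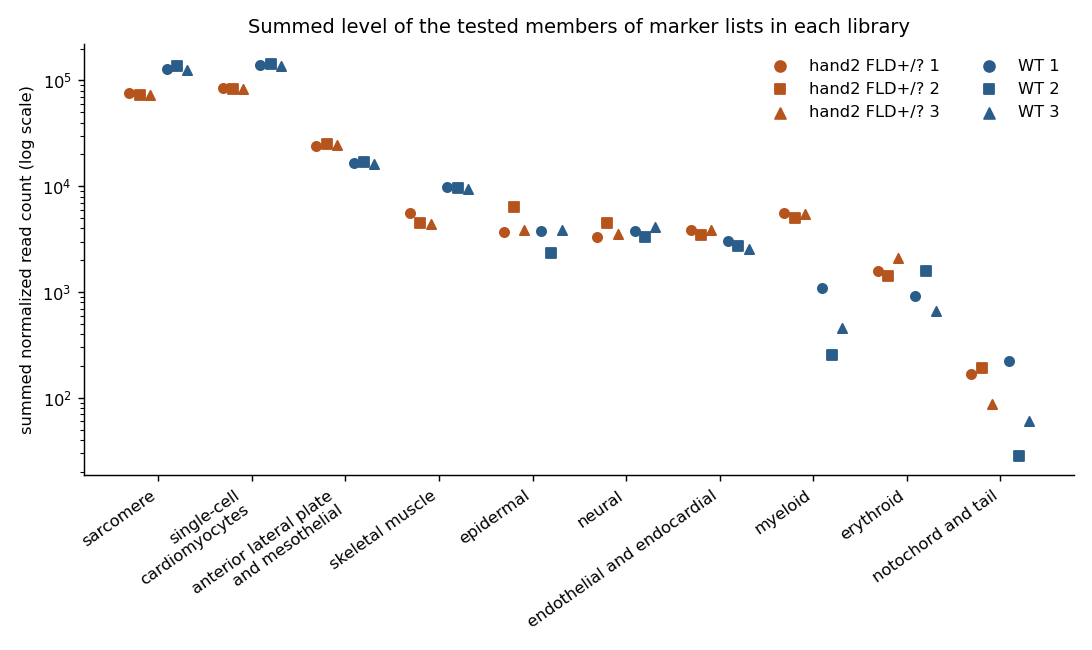
Summed normalized read count (log scale) of the tested members of 10 marker lists in each library, *hand2 FLD+/?* in orange on the left and WT in blue on the right, with symbols for libraries 1 to 3. The sarcomere and single-cell cardiomyocyte sums exceed all others in every library, myeloid sums are separated between the sets, and epidermal and erythroid sums vary within a set.

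The largest rises in *hand2 FLD+/?* were mostly of genes unread in WT. The chemokine receptor gene *cxcr3.2*, known from macrophages, had 346, 347 and 338 in *hand2 FLD+/?* and 0, 0 and 0 in WT, at least 115-fold higher against a floor of 3 for the group mean. *spns3*, *fstl3* and *gpr84* were at 0 in every WT library and at least 61.3-fold, 56.7-fold and 50.2-fold higher against the same floor. Secreted regulators were among these rises. The Wnt antagonist gene *dkk1a* had 426, 482 and 498 in *hand2 FLD+/?* and 4.6, 0 and 0 in WT, and the BMP family gene *gdf7* had 379, 443 and 476 in *hand2 FLD+/?* and 0, 0 and 4.5 in WT. *brinp3a.1* had 419.5, 415 and 519 in *hand2 FLD+/?* and 20.6, 0 and 0 in WT. Besides these, *mpeg1.1* and 2 genes known by clone names alone completed the 10 largest rises.

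The largest falls were of genes read at low levels in *hand2 FLD+/?*. The junction protein gene *ajap1* had 14.5, 4.2 and 29.1 in *hand2 FLD+/?* and 533, 410.4 and 458 in WT, the exchange factor gene *cyth4a* had 7.7, 8.5 and 5.1 in *hand2 FLD+/?* and 295, 208 and 244 in WT, and the activin receptor gene *acvr1bb* had 13.6, 8.5 and 4.3 in *hand2 FLD+/?* and 228, 208 and 214 in WT. Their log2 fold changes were -5.11 ± 0.58, -4.96 ± 0.34 and -4.59 ± 0.43 (SE). The interferon regulatory factor gene *irf1b* had 11.1, 5.1 and 6 in *hand2 FLD+/?* and 231, 217 and 151 in WT, and *ERBB4*, a neuregulin receptor gene named in capitals in the tables, had 6.8, 3.4 and 9.4 in *hand2 FLD+/?* and 146, 209 and 142 in WT. *lim2.1*, zgc:153738, si:dkeyp-94g1.1, *her12* and CR388132.1 completed the 10 largest falls. Libraries of the sets do not overlap in these 20 genes by the way they were chosen.

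Among genes listed in both tables, those present in 1 set alone were counted. They were at or under 3 in every library of one set and averaged 50 or more in the other. There were 42 in *hand2 FLD+/?* (0.245% of the genes tested) and 1 in WT (0.00584%). Beside *cxcr3.2*, the first set held the collagenase gene *mmp13a*, with 118, 144 and 188 in *hand2 FLD+/?* and 0, 0 and 0 in WT, and the adaptor gene *grap2b*, with 258, 197 and 182 in *hand2 FLD+/?* and 2.3, 0 and 1.1 in WT. The WT gene was the lens crystallin gene *cryba4*, at 0, 0.8 and 0 in *hand2 FLD+/?* and 4.6, 178 and 3.4 in WT. It thus rested on WT library 2. Genes listed in only 1 of the tables are outside these counts. Of these, 16 in *hand2 FLD+/?* and 2 in WT averaged 50 or more deposited normalized counts. The highest in WT was *ceacam1*, with 431, 465 and 454. The *hand2 FLD+/?* libraries also had the greater depth, and the part of depth in the unequal numbers was not tested.

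Neighbouring genes that exist in 2 copies gave a further difference. The tables list 2 genes named *actc1a*, for cardiac alpha actin, and 2 named *rrm2*, for a subunit of ribonucleotide reductase, each with a copy on chromosome 19 and a copy on chromosome 20. On chromosome 19 the copies (*actc1a* ENSDARG00000076126, danRer11, 47549568 to 47555956, and *rrm2* ENSDARG00000078069, 47564890 to 47571808) lie 8.93 kb apart. The chromosome 19 copy of *actc1a* had 33.2, 28.9 and 28.3 in *hand2 FLD+/?* and 419.6, 422 and 410.3 in WT, and that of *rrm2* had 6.8, 7.6 and 6.9 in *hand2 FLD+/?* and 164, 147 and 176 in WT. Both were lower in every *hand2 FLD+/?* library, with log2 fold changes of -3.75 and -4.33. The chromosome 20 copy of *actc1a* (ENSDARG00000042535) was not called, with 764.7, 759 and 756 in *hand2 FLD+/?* and 971, 992 and 978 in WT (log2 fold change -0.37). That of *rrm2* (ENSDARG00000020711) was called higher, opposite to its chromosome 19 copy, with 367.5, 401.8 and 371.8 in *hand2 FLD+/?* and 261, 231 and 261 in WT (log2 fold change 0.60, adjusted p = 0.0029). This call was lost without *hand2 FLD+/?* library 2 (log2 fold change 0.56) or WT library 2 (0.52). The chromosome 19 copy took 1.81% to 1.87% of the reads of both *rrm2* copies in *hand2 FLD+/?* and 38.5% to 40.3% in WT. Summed over copies, *rrm2* had 374.3, 409 and 379 in *hand2 FLD+/?* and 424, 379 and 436 in WT, so that the sets overlapped in the sum and differed in its division. The summed *actc1a* copies did not overlap, with 798, 788 and 784 in *hand2 FLD+/?* and 1390.4, 1414 and 1388 in WT (log2 fold change -0.82), and the chromosome 19 copy took 3.61% to 4.17% of them in *hand2 FLD+/?* and 29.6% to 30.2% in WT. Reads that fit several places were left out of the counts, so values of such copies are less certain than those of single genes. The *rrm2* and *actc1a* copies were singled out after their values were seen.

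**Figure D5:**
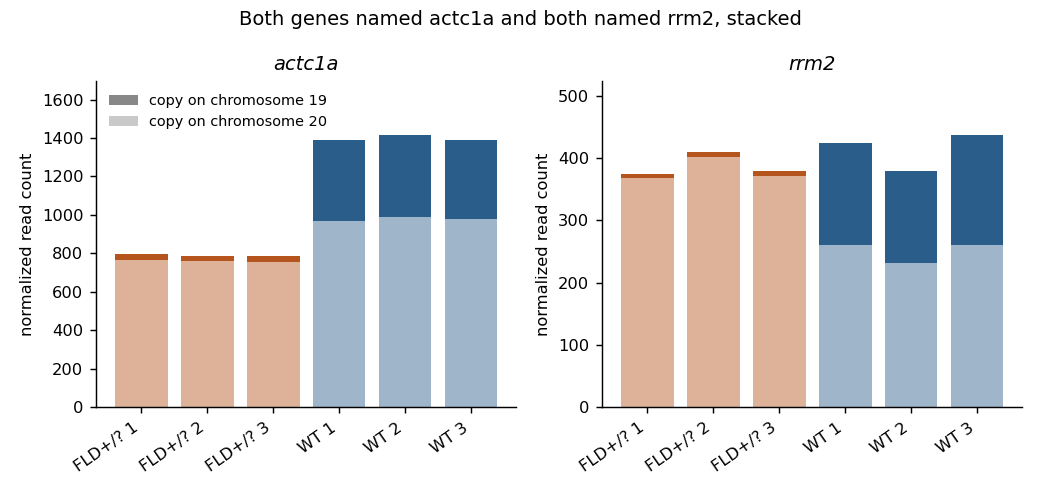
Normalized read count of the 2 genes named *actc1a* (left) and the 2 named *rrm2* (right) in each library, stacked, with the chromosome 19 copy in full colour on top of the pale chromosome 20 copy, *hand2 FLD+/?* in orange and WT in blue. The chromosome 19 copies are a thin strip in every *hand2 FLD+/?* library, the stacked *rrm2* totals of the sets overlap, and the stacked *actc1a* totals are lower in every *hand2 FLD+/?* library.

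Called genes were spread over the genome. The share of tested genes called in either direction ranged from 23.8% on chromosome 4 to 32.2% on chromosome 18, around the 29.1% of all genes. Of 23 Hox genes tested, 3 were called higher and 1 lower, a smaller share than that of all genes. The higher ones were *hoxb1a*, *hoxb3a*, with 886, 901 and 909.9 in *hand2 FLD+/?* and 229.8, 287 and 331 in WT, and *hoxb2a*, with 197, 173 and 235 in *hand2 FLD+/?* and 54.9, 67.3 and 49.9 in WT, all on chromosome 3 and known from the hindbrain and adjoining mesoderm. The listed span of *hoxb3a* (danRer11, 23697997 to 23771945) holds those of *hoxb2a* and *hoxb1a* on the same strand. Reads of ambiguous gene were not counted, so these rises share a locus and are not separate results. The lower one was *hoxc3a*, with 11.9, 21.2 and 11.1 in *hand2 FLD+/?* and 54.9, 30.8 and 82.7 in WT (log2 fold change -1.80 ± 0.51 SE, adjusted p = 0.024). Its call was lost without library 1 or 3 of either set, with adjusted p of 0.057 to 0.076, and with the values as the tables give them (0.051).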

How the data were processed

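Messenger RNA of sorted cardiomyocytes was sequenced by the authors as single ends of 72 bp from SMART-Seq HT libraries made from about 1 ng of RNA. They used Trimmomatic 0.39, STAR 2.7.10a, featureCounts 2.0.2 and DESeq2 1.30.1 with danRer11, per the labels' processing notes, and did not count reads of ambiguous gene or position. The use of strand in counting is not given in the sources used here, so overlapping genes are less certain. Each deposited value is a score, a read count that the authors normalized within its own experiment and rounded to a whole number.

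Control columns were matched to samples by the column names in the sample descriptions, and genes were joined on the Ensembl identifier. One factor per library, from the median of ratios over 15138 genes, was 1.167 to 1.177 in *hand2 FLD+/?* and 0.875 to 0.882 in WT. The values are not raw counts, so limma 3.58.1 in R 4.3.3 (lmFit, eBayes with a trend) was run on log2(value + 1), and fold changes understate those of low genes. Benjamini-Hochberg adjustment ran over the 17124 genes with a mean of 5 or more. Depth was estimated from whole numbers missing or doubled among low values. The reads carry no molecular identifiers. The fit was tested on simulated data in which few genes changed and the spread was set alike in both sets. That test does not cover differences as wide as those found here. It also does not cover unequal spread. The median standard deviation of the log2 values was 0.189 in *hand2 FLD+/?* and 0.275 in WT. The p-values use 1 spread per gene for both sets.

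The libraries, lists and tests were chosen with earlier results of these data known. Lists are described by counts and medians, with no test of a list. The genes named are the 10 largest rises and falls among called genes without overlap and with a mean of 50 or more. From each list come up to 4 called members with the largest change and a mean of 20 or more, with the defining markers. Also named are the genes drawn up from the study, *fgfr2* included, and the 10 genes with the highest smaller group mean. Leading genes present in 1 set or table are named too. Other genes were named after their values were seen. Alternatives were other rescalings, pseudocounts, filters, limma settings and thresholds, genes of 1 table at 0, a replicate block and each library left out. Same-numbered libraries of the sets did not visibly deviate together (correlations 0.026, -0.0574 and -0.0281). With so few libraries this cannot decide whether the numbers pair samples. The mutant and overexpression libraries are not analysed here.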

Additional observations from a re-analysis of the deposited data

Results flagged for a closer look

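Genes listed in only 1 of the tables are outside the comparison, and some carried clear levels. The table of the *hand2 FLD+/?* siblings lists 1857 genes that the other lacks, of which 16 had a mean of at least 50 deposited normalized counts in the 3 *hand2 FLD+/?* libraries. The highest, si:dkey-15j16.6, had 335, 282 and 341 (mean 319.3). The table of the WT siblings lists 1406 genes that the other lacks, of which 2 had such a mean in WT. *ceacam1* had 431, 465 and 454 (mean 450), near the same in each library, and the lens crystallin gene *cryba1b* had 0, 369 and 0, from WT library 2 alone, the library that also held the crystallin gene *cryba4*. Values of the 2 tables are on separate scales here.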

How the results depend on the processing

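The counts of genes higher (3095) and lower (1894) stayed within 1.5 times under joint rescaling by totals or trimmed means, other pseudocounts and filters, limma without the trend or with robust settings, and genes of 1 table at 0. With the values as the tables give them there were 5599 higher and 896 lower, since the tables were normalized apart. Without a fold change threshold 3335 were lower, and at 2-fold 1080. Among genes averaging 200 or more, an alternative chosen after seeing the data, 1185 were higher and 1092 lower. With a replicate block there were 2975 higher and 1762 lower, 4737 in all, and 3695 genes inside the 1.5-fold interval. With each library left out in turn, the counts were 2284 to 3156 higher, 1641 to 1858 lower and 3925 to 4973 in all, with 3302 to 3684 inside the interval, and the higher count was lowest without a *hand2 FLD+/?* library. Of genes present in 1 set, the WT count was 0 with a floor of 0, and with a mean of at least 20 the counts were 132 in *hand2 FLD+/?* and 14 in WT. No named gene reversed while called. None of the 5291 genes averaging under 50 normalized counts had an interval inside 1.5-fold, and the part of depth in this was not tested. The epidermal median changed sign with the left-out library, from -0.97 to 0.48, and none is given. Other list medians moved too. Over the alternatives they ranged from 0.91 to 2.63 for neural crest, 0.61 to 2.12 for pronephros and -1.28 to -0.40 for skeletal muscle. Those of collagens and of BMP and Nodal signalling ranged from 0.27 to 0.82 and from 0.13 to 0.61.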
